A study of Mus musculus with 3 samples.

Results

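A set of 9 genes of lipid uptake, lipid handling and the fat cell was followed over 3 sorted populations of mouse endosteal cells, which line the inner surface of bone. They are Lpl, Cd36, Fabp4, Fabp5, Acsl1, Scd1, Plin2, Apoe and Adipoq, and were taken as every probe set whose only gene symbol in the array annotation is one of these names. Of the 9 genes listed, 8 had such a probe set, 16 probe sets in all, out of 18194 genes and 34958 probe sets with 1 gene symbol. Acsl1, which encodes an enzyme that activates long-chain fatty acids, was not analysed here. Cells came from thigh and shin bones of C57BL/6 mice after collagenase digestion and lacked CD45, CD31 and Ter119, which mark blood cells in general, the lining of vessels and the red cell line. The groups were ALCAM(+) Sca-1(-) cells (called ALCAM+ here), ALCAM(-) Sca-1(+) cells (Sca-1+) and ALCAM(-) Sca-1(-) cells (marker-negative). ALCAM mediates cell adhesion, and Sca-1 is found on many stem and progenitor cells. The labels state no treatment, genetic change, age or number of mice, and each population was hybridised to 1 array.

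Fat reaches tissues inside lipoprotein particles. Lipoprotein lipase, the product of Lpl, frees fatty acids from them. CD36 takes fatty acids through the cell membrane, fatty acid binding proteins carry them inside the cell, acyl-CoA synthetases activate them and perilipins coat the droplets in which they are stored. In marrow, cells of the stromal lineage can become adipocytes, and Adipoq, which encodes the hormone adiponectin, is a defining adipocyte gene that marrow reticular stromal cells also express. Macrophages and vessel lining express several of the same genes.

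With 1 array per population there is no replicate, no test and no error between cell preparations. Values are MAS5 signals, which combine the probes of a probe set on a linear scale, and the level of one gene is not set against that of another. Sums over a marker list add different probe sets, so a bright one can carry them, and serve only to set one list side by side over the populations. Signals below a floor of 75.4, the median signal of the pooled arrays without control probe sets, were raised to it before a difference was taken. A gene was counted as higher or lower if it differed at least 4-fold, that is by 2 on the log2 scale, in its brightest probe set. The yardstick used for noise was how far probe sets of one gene disagreed on these arrays, which had an SD per probe set of 0.38 on the log2 scale for ALCAM+ over marker-negative cells, 0.47 for Sca-1+ over marker-negative cells and 0.53 for ALCAM+ over Sca-1+ cells (4154 genes). It leaves out the spread between mice and sorts. Alcam itself had a signal of 267.7 in ALCAM+ cells, 41.1 in Sca-1+ cells and 36.3 in marker-negative cells. Ptprc, the CD45 gene, had 11.6 in ALCAM+ cells, 163.2 in Sca-1+ cells and 159.4 in marker-negative cells. Spiked-in hybridisation controls were brighter on the ALCAM+ array (geometric mean 5728) than on the Sca-1+ array (3375) and the marker-negative array (4155). Scaling on them put the median log2 difference of genes above the floor at -0.44 for ALCAM+ over marker-negative, at 0.25 for Sca-1+ over marker-negative and at -0.73 for ALCAM+ over Sca-1+ cells, so small differences depend on the scaling.

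Lpl and Fabp5 differed by over 4-fold, in opposite directions. Lpl was 11.7-fold higher in Sca-1+ cells than in marker-negative cells, and Fabp5 was 5.76-fold lower. Plin2, which encodes the droplet coat protein perilipin 2, exceeded its marker-negative value 2.08-fold in Sca-1+ cells, and Apoe, which encodes the lipoprotein component apolipoprotein E, was 2.80-fold lower in ALCAM+ cells than in marker-negative cells. Cd36 stayed below the floor in the 3 populations, and Fabp4 and Adipoq rose little above it. Among the 7 genes that exceeded the floor anywhere, the highest signal lay in Sca-1+ cells for Lpl, Fabp4 and Plin2 and in marker-negative cells for Fabp5, Scd1, Apoe and Adipoq.

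**Figure D1:**
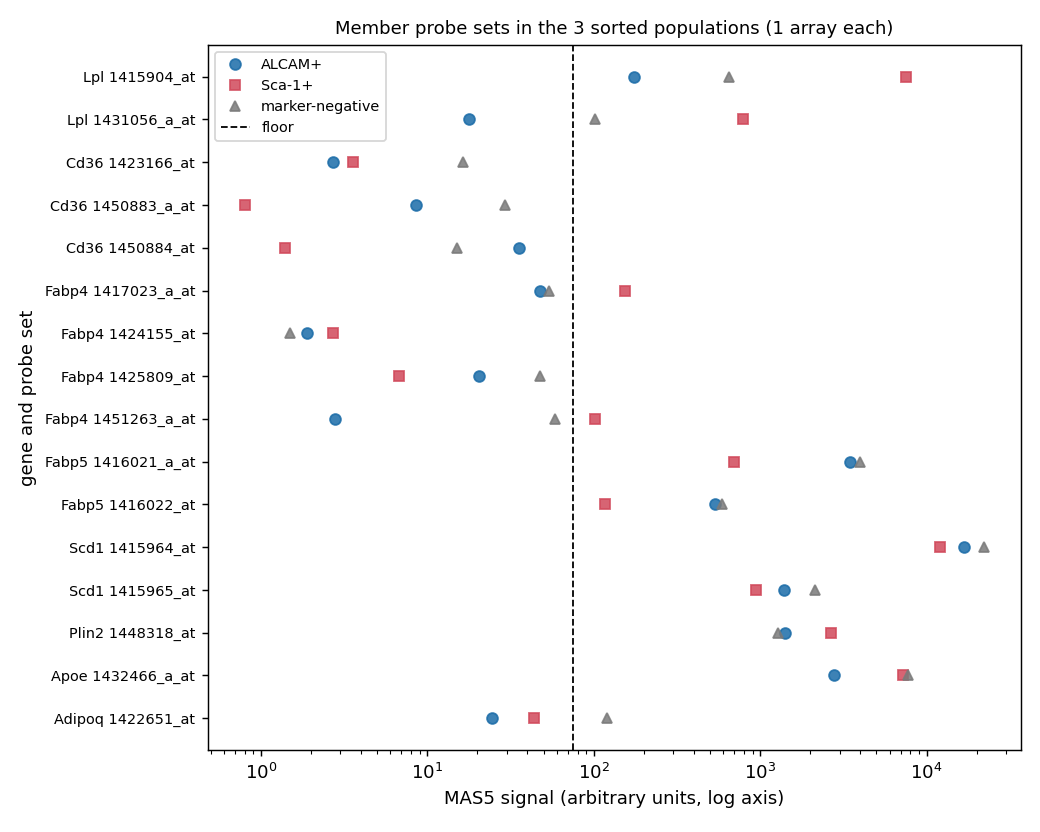
MAS5 signal (log axis) of the 16 member probe sets, 1 row each, in ALCAM+ (circles), Sca-1+ (squares) and marker-negative cells (triangles), 1 array per population; the dashed line is the floor of 75.4. Both Lpl probe sets have their highest signal in Sca-1+ cells, both Fabp5 probe sets have their lowest there, and the 3 Cd36 probe sets lie below the floor throughout.

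Lpl had a signal of 174.8 in ALCAM+ cells, 7558 in Sca-1+ cells and 647 in marker-negative cells (probe set 1415904_at). The Sca-1+ value stood far above the others, with a log2 difference of 3.55 over marker-negative cells and of -5.43 for ALCAM+ over Sca-1+ cells, a 43.2-fold difference. The other Lpl probe set, 1431056_a_at, gave 17.7 in ALCAM+ cells, 785.6 in Sca-1+ cells and 101.4 in marker-negative cells. It kept the same order, with 7.75-fold higher signal in Sca-1+ cells than in marker-negative cells and at least 10.4-fold lower signal in ALCAM+ cells than in Sca-1+ cells. Between ALCAM+ and marker-negative cells Lpl was 3.70-fold lower, just short of 4-fold (log2 difference -1.89). That size depended on the setting: the log2 difference was -2.42 and -2.35 under the spike-in scalings, which passes 4-fold, but -1.16 with probe sets averaged and -0.58 with the floor at the 75th percentile of signals. The second probe set gave a bound of at least 1.34-fold.

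Genes that act on lipoprotein lipase did not share this range. Angptl4, which encodes an inhibitor of the enzyme, had 1198 in ALCAM+ cells, 2209 in Sca-1+ cells and 1033 in marker-negative cells, 2.14-fold higher in Sca-1+ cells than in marker-negative cells. Gpihbp1, which encodes the protein that holds the enzyme on capillary walls, lay near the floor, at 85.5 in ALCAM+ cells, 94.2 in Sca-1+ cells and 106.6 in marker-negative cells. Of the 9 genes of the lipoprotein lipase list other than Lpl that had a probe set, 5 were below the floor on the 3 arrays and 0 passed 4-fold in any comparison. Of all 18194 genes, 5550 were below the floor on the 3 arrays.

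Cd36, the fatty acid transporter and scavenger receptor, had 3 probe sets. In the brightest, 1450884_at, the signal was 35.8 in ALCAM+ cells, 1.4 in Sca-1+ cells and 15.1 in marker-negative cells, so no difference between populations can be read from it. The highest of the 9 Cd36 values was below the floor by a factor of 2.11.

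Fabp4, the adipocyte fatty acid binding protein that macrophages and vessel lining also express, had 4 probe sets. In 1417023_a_at it had 47.8 in ALCAM+ cells, 154.2 in Sca-1+ cells and 54.2 in marker-negative cells, a difference of at least 2.05-fold between Sca-1+ and marker-negative cells. Probe set 1451263_a_at gave 2.8 in ALCAM+ cells, 102 in Sca-1+ cells and 58.2 in marker-negative cells, again above the floor in Sca-1+ cells alone. The 2 other probe sets stayed below the floor everywhere, and under a floor at the 75th percentile of signals the difference was 0.

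Fabp5, a fatty acid binding protein first known from skin, was lowest in Sca-1+ cells, where Lpl was highest. Its signal in 1416021_a_at was 3462 in ALCAM+ cells, 692.2 in Sca-1+ cells and 3986 in marker-negative cells, so ALCAM+ and marker-negative cells lay close together and Sca-1+ cells lay below both. The log2 difference was -2.53 for Sca-1+ over marker-negative cells and 2.32 for ALCAM+ over Sca-1+ cells, but -0.20 for ALCAM+ over marker-negative cells, within the disagreement between probe sets. In the second probe set, 1416022_at, the signals were 537.8 in ALCAM+ cells, 116.8 in Sca-1+ cells and 589.5 in marker-negative cells, and Fabp5 was 5.05-fold lower in Sca-1+ cells than in marker-negative cells. The difference between ALCAM+ and Sca-1+ cells fell short of 4-fold under scaling on spiked-in controls, where the log2 value went down to 1.49.

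Other members of the binding protein family had patterns of their own. Fabp3, the heart and muscle form, had 985.5 in ALCAM+ cells, 113.7 in Sca-1+ cells and 198.6 in marker-negative cells. It was 4.96-fold higher in ALCAM+ cells than in marker-negative cells, a call lost in 4 of 8 alternative settings (down to a log2 difference of 1.18). Fabp7, the brain form, was above the floor in marker-negative cells alone, at 205, against 8.5 in ALCAM+ and 33.6 in Sca-1+ cells. Fabp1, Fabp2 and Fabp6 were below the floor on the 3 arrays.

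Scd1 encodes the desaturase that makes monounsaturated fatty acids. Its signal was 16742 in ALCAM+ cells, 11983 in Sca-1+ cells and 21995 in marker-negative cells (1415964_at). The differences were all under 2-fold in this probe set, with Scd1 1.84-fold lower in Sca-1+ cells than in marker-negative cells. Its other probe set gave 1400 in ALCAM+ cells, 947.4 in Sca-1+ cells and 2129 in marker-negative cells, 2.25-fold lower in Sca-1+ cells than in marker-negative cells. The order of ALCAM+ and Sca-1+ cells turned round when arrays were scaled on either set of spiked-in controls (log2 difference of 0.48 as deposited and at its lowest -0.35).

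Plin2 had 1403 in ALCAM+ cells, 2657 in Sca-1+ cells and 1278 in marker-negative cells, from 1 probe set. Sca-1+ cells stood above the others, by 1.06 on the log2 scale over marker-negative cells. The small difference between ALCAM+ and marker-negative cells, 0.13, changed sign under scaling on spiked-in controls. Apoe, also with 1 probe set, had 2785 in ALCAM+ cells, 7255 in Sca-1+ cells and 7787 in marker-negative cells. Here ALCAM+ cells stood below the others, with a log2 difference of -1.48 over marker-negative and -1.38 over Sca-1+ cells, while Sca-1+ and marker-negative cells differed by -0.10, which changed sign under scaling on spiked-in controls. Under the poly-A spike-in scaling Apoe passed 4-fold in both comparisons of ALCAM+ cells, with log2 differences of -2.01 over marker-negative and -2.22 over Sca-1+ cells.

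Adipoq had 24.6 in ALCAM+ cells, 43.8 in Sca-1+ cells and 120.4 in marker-negative cells. Its only value above the floor, in marker-negative cells, exceeded it by a factor of 1.60, and under a floor at the 75th percentile there was no difference. Of 10 other adipocyte genes with a probe set, 6 were below the floor on the 3 arrays, where 5550 of all 18194 genes were. Among the 6 were Lep, which encodes leptin (5.5 in ALCAM+ cells, 1.8 in Sca-1+ cells and 8.9 in marker-negative cells), and the droplet gene Cidec (4.8, 14.8 and 3.3 in the same order). Slc2a4, Rbp4 and Lipe of that list differed less than 4-fold in each comparison, and the exception was Car3, a carbonic anhydrase gene of muscle and fat, with 46407 in ALCAM+ cells, 51.9 in Sca-1+ cells and 7384 in marker-negative cells. Receptors for adiponectin were bright: Adipor1 had 2815 in ALCAM+ cells, 1579 in Sca-1+ cells and 2124 in marker-negative cells, and Adipor2 had 1835 in ALCAM+ cells, 1478 in Sca-1+ cells and 2532 in marker-negative cells. Cdh13, which encodes T-cadherin, an adiponectin-binding protein of the cell surface, differed by 3.80 on the log2 scale between Sca-1+ and marker-negative cells, at 4337 against 310.5, and had 145.5 in ALCAM+ cells. That call was lost with probe sets averaged (log2 difference 1.91).

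**Figure D2:**
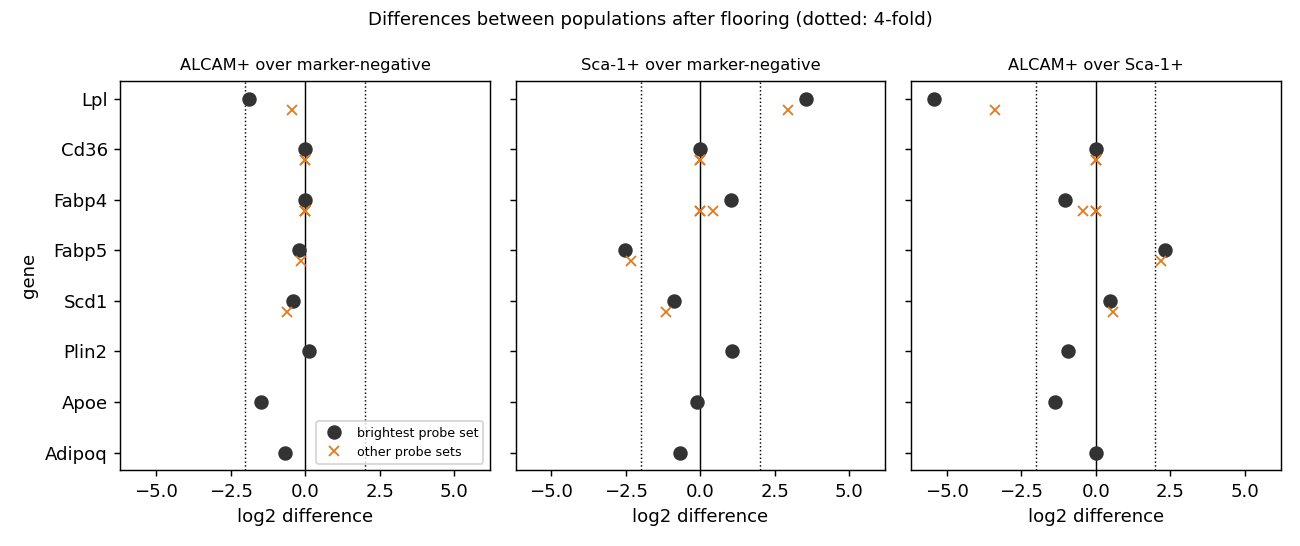
Log2 difference of each of the 8 member genes in the 3 comparisons, with signals raised to the floor; dots are the brightest probe set, crosses the others, and dotted lines mark 4-fold. Lpl and Fabp5 pass 4-fold in opposite directions in both comparisons that involve Sca-1+ cells, and no gene passes it between ALCAM+ and marker-negative cells.

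Counted over the 8 genes with a probe set, ALCAM+ and marker-negative cells differed by 4-fold in 0 genes, where 1.4% of 18194 genes were higher and 1.86% lower in ALCAM+ cells. The median log2 difference of the 8 was -0.30, against 0 for all genes. In Sca-1+ over marker-negative cells, 1 gene was higher (Lpl) and 1 lower (Fabp5), where 3.79% of all genes were higher and 3.27% lower, and the median was -0.05 against 0. In ALCAM+ over Sca-1+ cells, 1 gene was higher (Fabp5) and 1 lower (Lpl), where 2.77% of all genes were higher and 4.07% lower, and the median was -0.46 against 0. The comparison of ALCAM+ with Sca-1+ cells is the difference of the other comparisons and adds no measurement. At a 2-fold rule, 3 genes were higher in Sca-1+ cells than in marker-negative cells (Lpl, Fabp4 and Plin2; 10.4% of all genes) and 1 was lower (Fabp5; 8.83% of all genes). By the same rule 0 genes were higher (4.64% of all genes) and 2 lower (Lpl and Apoe; 7.36% of all genes) in ALCAM+ cells than in marker-negative cells. In ALCAM+ over Sca-1+ cells 1 was higher (Fabp5; 7.78% of all genes) and 3 were lower (Lpl, Fabp4 and Apoe; 11% of all genes). In bulk samples fewer cells of a type and less RNA per cell cannot be told apart.

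Promoter sequence from RefSeq (GRCm38.p6) matched 5 of the 9 listed genes, with more than 1 start for Apoe and Acsl1. The 120 bases before the start are shown for Plin2, the matched gene with its highest signal in Sca-1+ cells, for Apoe, the matched gene that was low in ALCAM+ cells, and for Adipoq, which lay near the floor. Capitals mark CCAAT on either strand in Plin2 and Adipoq and TATAAA on either strand, in overlapping matches, in Apoe. Of the 3 Apoe starts, the one shown is the only one with a match to any motif searched.
Plin2, chr4:86670060-86670179, minus strand: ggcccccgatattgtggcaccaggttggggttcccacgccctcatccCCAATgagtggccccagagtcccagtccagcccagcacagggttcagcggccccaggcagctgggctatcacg
Apoe, chr7:19698622-19698741, minus strand: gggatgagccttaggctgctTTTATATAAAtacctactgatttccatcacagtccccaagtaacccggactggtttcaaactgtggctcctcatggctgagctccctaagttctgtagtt
Adipoq, chr16:23146416-23146535, plus strand: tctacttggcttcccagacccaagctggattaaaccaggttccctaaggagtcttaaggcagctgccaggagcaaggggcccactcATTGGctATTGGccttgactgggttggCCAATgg

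Over the 250 bases before the start, CCAAT was found on either strand in 4 of the 8 promoters of the 5 matched genes and in 33.8% of 32851 mouse promoters, TATAAA in 1 of 8 and 12.4%, and GGGCGG, the GC box, in 2 of 8 and 32.7%. The nuclear receptor hexamer AGGTCA was found in 2 of 8, those of Plin2 and Cd36, and in 14% of all promoters. Its direct repeat with 1 base between the copies, the consensus that PPAR receptors bind, was found in 0 of 8 and in 0.0335% of all promoters. A match describes letters in this window and not a bound site.

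Genes that work beside the members were taken from 13 lists of lipid genes. Of 144 such genes with a probe set, members left out, 6 were higher (4.17%, against 1.4% of all genes) and 6 lower (4.17%, against 1.86%) in ALCAM+ cells than in marker-negative cells. In Sca-1+ over marker-negative cells 6 were higher (4.17%, against 3.79%) and 12 lower (8.33%, against 3.27%). In ALCAM+ over Sca-1+ cells 8 were higher (5.56%, against 2.77%) and 9 lower (6.25%, against 4.07%). The shares of all genes given here are also those to set beside the 4-fold counts of each list below.

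Uptake genes beside Cd36 were high in Sca-1+ cells and low in ALCAM+ cells in 2 cases. Cav1, which encodes the caveolar coat protein caveolin-1, had 569.1 in ALCAM+ cells, 13504 in Sca-1+ cells and 3519 in marker-negative cells. Slc27a3, of the fatty acid transport protein family, had 85.8 in ALCAM+ cells, 1656 in Sca-1+ cells and 374.4 in marker-negative cells, with calls that were lost at the higher floor. Of the 15 uptake and binding genes other than members, 1 was higher and 2 lower in ALCAM+ cells than in marker-negative cells, and 1 was higher and 0 lower in Sca-1+ cells than in marker-negative cells. Among 7 lipolysis genes none passed 4-fold against marker-negative cells, but Mgll, the monoglyceride lipase gene, was 4.43-fold lower in ALCAM+ cells than in Sca-1+ cells (599.2 against 2654) and Lipa, the lysosomal lipase gene, was 5.10-fold lower (260.2 against 1328). Hilpda, which encodes a hypoxia-induced droplet protein and lipase inhibitor, went the other way, 6.07-fold higher in ALCAM+ cells than in Sca-1+ cells (1486 against 244.8). Each of these 3 calls was lost in at least 1 of 8 alternative settings, without a change of sign.

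Acyl-CoA synthetases other than Acsl1 were lower than in marker-negative cells where they differed at all by 4-fold. Acss1, the mitochondrial acetate-activating enzyme, was at least 8.64-fold lower in ALCAM+ and in Sca-1+ cells than in marker-negative cells, at 47.9 and 65.8 against 651.8. Acsl6 was at least 5.49-fold lower in Sca-1+ cells, at 47.3 against 414.2. These calls were lost with probe sets averaged and with the floor at the 75th percentile. Marker-negative cells also held the signal of red cell precursors: 5 of 6 erythroid genes were above the floor there, 1 of 6 in ALCAM+ and 1 of 6 in Sca-1+ cells, and their summed signal was 294 in ALCAM+ cells, 248 in Sca-1+ cells and 10442 in marker-negative cells. The part of these cells in the acyl-CoA synthetase values was not tested.

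Lipoprotein receptors split. Scarb1, the receptor for high-density lipoprotein, was 21.0-fold lower in Sca-1+ cells than in marker-negative cells, at 297.4 against 6234, and had 4729 in ALCAM+ cells. Sort1, which encodes the sorting receptor sortilin, a binding partner of lipoprotein lipase, was 26.5-fold lower, at 111.2 against 2942, and had 2171 in ALCAM+ cells. Vldlr, the very low density lipoprotein receptor gene, was 8.05-fold higher in ALCAM+ cells than in marker-negative cells, at 3640 against 452.2, and had 1252 in Sca-1+ cells. Lrp8, the apolipoprotein E receptor 2 gene, was lower in both, at 169.8 in ALCAM+ and 127.1 in Sca-1+ cells against 766 in marker-negative cells, calls that were lost with probe sets averaged and at the higher floor. Of the 8 receptor genes with a probe set, 1 was higher and 1 lower in ALCAM+ cells and 0 were higher and 3 lower in Sca-1+ cells, each against marker-negative cells.

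Of 10 cholesterol efflux and lipoprotein genes beside Apoe, Pltp and Abca1 were higher in ALCAM+ cells than in marker-negative cells, although Apoe was not. Pltp, the phospholipid transfer protein gene, was 7.16-fold higher, at 8647 against 1208, and had 3644 in Sca-1+ cells. Abca1, which exports cholesterol to apolipoproteins, was 6.42-fold higher, at 5623 against 876.4, with 3353 in Sca-1+ cells, and 7 of 8 alternative settings kept that call. Apod, which encodes apolipoprotein D, was 7.97-fold higher in Sca-1+ cells than in marker-negative cells, at 14058 against 1764, and had 824.2 in ALCAM+ cells.

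Droplet and triglyceride genes other than Plin2 moved little. Of 16 with a probe set, 0 were higher and 1 lower in ALCAM+ cells than in marker-negative cells, and 0 passed 4-fold in Sca-1+ cells. The 1 gene was Plin4, another perilipin, with 76.9 in ALCAM+ cells, 288.9 in Sca-1+ cells and 634 in marker-negative cells, a call lost at the higher floor. Plin3 differed in the direction of Plin2, with 539.8 in ALCAM+ cells, 1393 in Sca-1+ cells and 485.9 in marker-negative cells. In the 17 fatty acid oxidation genes 1 passed 4-fold in ALCAM+ over marker-negative cells, Pdk4, a kinase that restrains glucose oxidation, which was 6.66-fold higher at 3801 against 570.7. Cpt1a, the gate of mitochondrial fatty acid entry, was 3.33-fold higher in Sca-1+ cells than in marker-negative cells, at 1320 against 396.1. The median of the oxidation list was 0.28 in Sca-1+ over marker-negative cells, against 0 for all genes, with 13 of 17 genes above 0. In ALCAM+ over marker-negative cells it was 0.09, against 0 for all genes, with 11 of 17 above 0. That direction turned round under either spike-in scaling, with 3 genes above 0 and 13 below. The ALCAM+ median was then -0.39 (poly-A) and -0.32 (hybridization control), where that of all genes above the floor was -0.50 and -0.44. The Sca-1+ median was 0.17 with probe sets averaged and 0.59 under poly-A spike-in scaling, so its size depended on the setting. Acaa2, a thiolase gene of the same pathway, was 4.98-fold lower in ALCAM+ cells than in Sca-1+ cells, at 419.9 against 2092.

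Of 18 fatty acid synthesis and desaturation genes other than Scd1, 0 were at least 4-fold higher and 2 lower in Sca-1+ cells than in marker-negative cells, with a median of -0.25. That median was -0.07 under poly-A spike-in scaling and -0.08 under hybridization control scaling. In ALCAM+ over marker-negative cells 0 were higher and 1 lower by 4-fold, with a median of -0.39. Under these scalings the ALCAM+ median was -0.92 and -0.86. Fads2, a desaturase of polyunsaturated fatty acids, had 1501 in ALCAM+ cells, 1190 in Sca-1+ cells and 6174 in marker-negative cells. Me1, which supplies reducing power for lipid synthesis, had 2982 in ALCAM+ cells, 547.6 in Sca-1+ cells and 2507 in marker-negative cells, and its calls were lost under either spike-in scaling. Of the cholesterol synthesis genes, 12 of 13 were at least 2-fold lower in Sca-1+ cells than in marker-negative cells, where 8.83% of all genes were, and 4 were at least 4-fold lower, with a median of -1.84. Stard4, which encodes a cholesterol carrier, was 9.89-fold lower, at 203.8 against 2015, Cyp51 4.72-fold lower, at 540.8 against 2550, Idi1 4.33-fold lower, at 1447 against 6272, and Fdft1 4.14-fold lower, at 1562 against 6473. The calls of Cyp51, Idi1 and Fdft1 were lost under either spike-in scaling, where Stard4 alone remained. In ALCAM+ over marker-negative cells 0 of the 13 passed 2-fold and the median was -0.27. Under either spike-in scaling all 13 lay below 0 in that comparison, with a median of -0.80 (poly-A) and -0.73 (hybridization control). Srebf2, which encodes a transcription factor that drives these genes, differed from the rest, at 391.3 in ALCAM+ cells, 458.4 in Sca-1+ cells and 354.9 in marker-negative cells. The median in Sca-1+ over marker-negative cells lay between -1.92 and -1.45 under 3 other scalings and when probe sets were averaged.

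**Figure D3:**
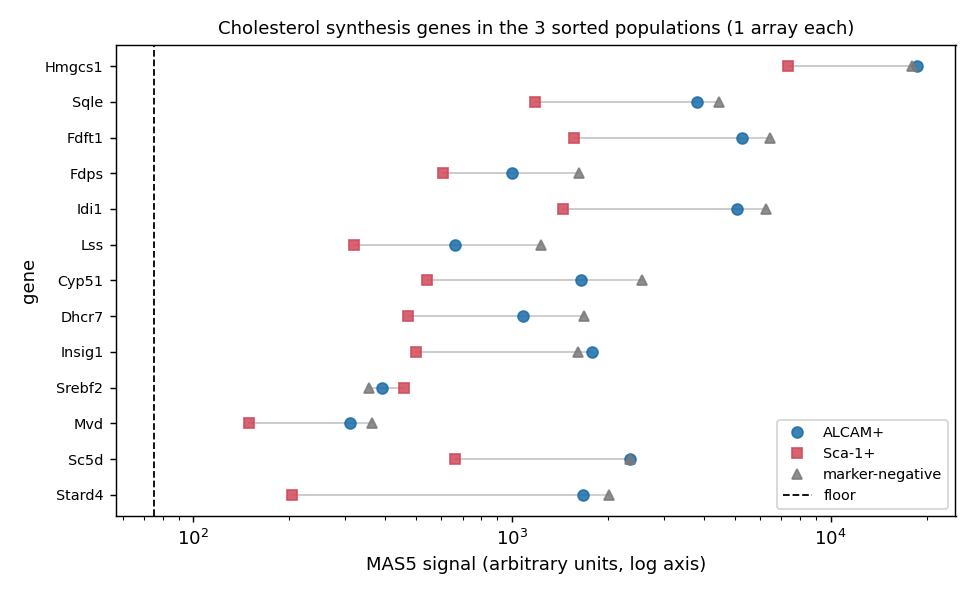
MAS5 signal (log axis) of the 13 cholesterol synthesis genes in ALCAM+ (circles), Sca-1+ (squares) and marker-negative cells (triangles), 1 array per population; the dashed line is the floor. Sca-1+ cells have the lowest signal in 12 of 13 genes, Srebf2 being the exception, and lie below ALCAM+ cells in 11 of 13 under either spike-in scaling.

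**Figure D4:**
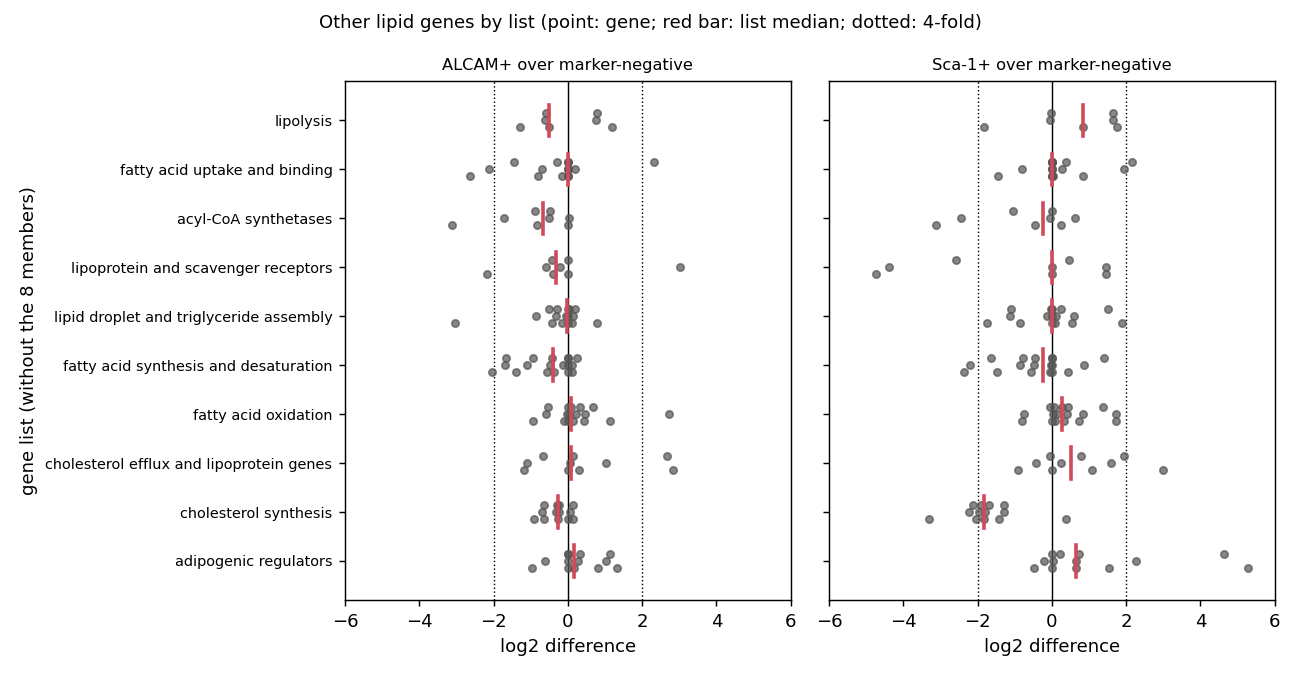
Log2 differences of the genes in 10 of the lipid lists, members left out, for ALCAM+ over marker-negative cells (left) and Sca-1+ over marker-negative cells (right); points are genes, red bars list medians and dotted lines 4-fold. The cholesterol synthesis list lies near -0.27 on the left and near -1.84 on the right.

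Among regulators of fat cell formation, Pparg, the master regulator of adipocytes, had 5.3 in ALCAM+ cells, 126 in Sca-1+ cells and 19.1 in marker-negative cells, a difference of at least 1.67-fold between Sca-1+ and marker-negative cells. Cebpa, its partner, had 76.8 in ALCAM+ cells, 238.3 in Sca-1+ cells and 151 in marker-negative cells. Of the 13 regulators, 3 exceeded their marker-negative value by 4-fold or more in Sca-1+ cells (3.79% of all genes) and 0 were lower (3.27% of all genes). They were Ebf2 at at least 38.9-fold (2933 against 52.7, with 7.3 in ALCAM+ cells), Ebf1 at 24.9-fold (2691 against 107.9, with 271.7 in ALCAM+ cells) and Zfp423 at 4.82-fold (938.9 against 194.9, with 429.7 in ALCAM+ cells). The Zfp423 call was lost with the floor at the 75th percentile.

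Other cell types that express these lipid genes were looked for with marker lists. Of all 18194 genes, 5550 were below the floor on the 3 arrays, a share to set beside the counts of marker genes below it. Of 14 macrophage genes, 9 were below the floor on the 3 arrays, including Adgre1, Mrc1, Vsig4 and the complement genes C1qa, C1qb and C1qc. The summed macrophage signal was 2772 in ALCAM+ cells, 2095 in Sca-1+ cells and 2085 in marker-negative cells, with Mertk at 1464.5 in ALCAM+ cells, 178.6 in Sca-1+ cells and 822.6 in marker-negative cells. Of the same list, 2 genes had the order of Lpl: Cd68 had 112.5 in ALCAM+ cells, 187 in Sca-1+ cells and 143.6 in marker-negative cells, and Lyz2, which neutrophils share, had 96.6 in ALCAM+ cells, 888 in Sca-1+ cells and 262.3 in marker-negative cells. The Cd68 values lay close together, and all were below the floor at the 75th percentile (433.85), where its order is lost. Of 10 endothelial genes, 4 were below the floor everywhere, among them Pecam1 and Cdh5, and the summed signal was 580 in ALCAM+ cells, 1477 in Sca-1+ cells and 649 in marker-negative cells. Tek had 28.8 in ALCAM+ cells, 630.6 in Sca-1+ cells and 18.8 in marker-negative cells, and Plvap had 164.1 in ALCAM+ cells, 545.6 in Sca-1+ cells and 100.3 in marker-negative cells. These were the only 2 endothelial genes above the floor in Sca-1+ cells, against 3 in ALCAM+ and 4 in marker-negative cells. Of the 10, 2 passed 4-fold upward and 0 downward in Sca-1+ over marker-negative cells, and 3 had a log2 difference below 0. The calls of Tek and Plvap were lost with the floor at the 75th percentile. Neutrophil genes had the order of Lpl in their summed signal, at 383 in ALCAM+ cells, 14476 in Sca-1+ cells and 2952 in marker-negative cells, with 5 of 7 genes higher and 2, Elane and Mpo, lower in Sca-1+ cells than in marker-negative cells. Fibroblast markers moved with it as well, with 8 of 8 genes higher in Sca-1+ cells than in marker-negative cells and a summed signal of 555 in ALCAM+ cells, 86214 in Sca-1+ cells and 1878 in marker-negative cells. Chondrocyte markers moved with Fabp5 and the cholesterol synthesis genes, with 8 of 8 lower in Sca-1+ cells and summed signals of 200814 in ALCAM+ cells, 4604 in Sca-1+ cells and 174013 in marker-negative cells. The 6 osteoblast markers summed to 96090 in ALCAM+ cells, 2017 in Sca-1+ cells and 33547 in marker-negative cells. The part of any of these cells in the lipid gene values was not tested.

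The genes whose pattern over the 3 arrays was nearest to Lpl, by Euclidean distance between centred log2 signals among 12643 other genes above the floor, were Gpnmb, Gas6 and Fbln5, at distances of 0.10, 0.12 and 0.16. Gpnmb had 111.7 in ALCAM+ cells, 5091 in Sca-1+ cells and 457.1 in marker-negative cells. Nearest to Fabp5 were Lingo1, Gm13889 and Sfn, and nearest to Apoe were Oaf, Slc2a3 and Mark1. With 3 points per pattern such nearness is a description of these arrays.

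**Figure D5:**
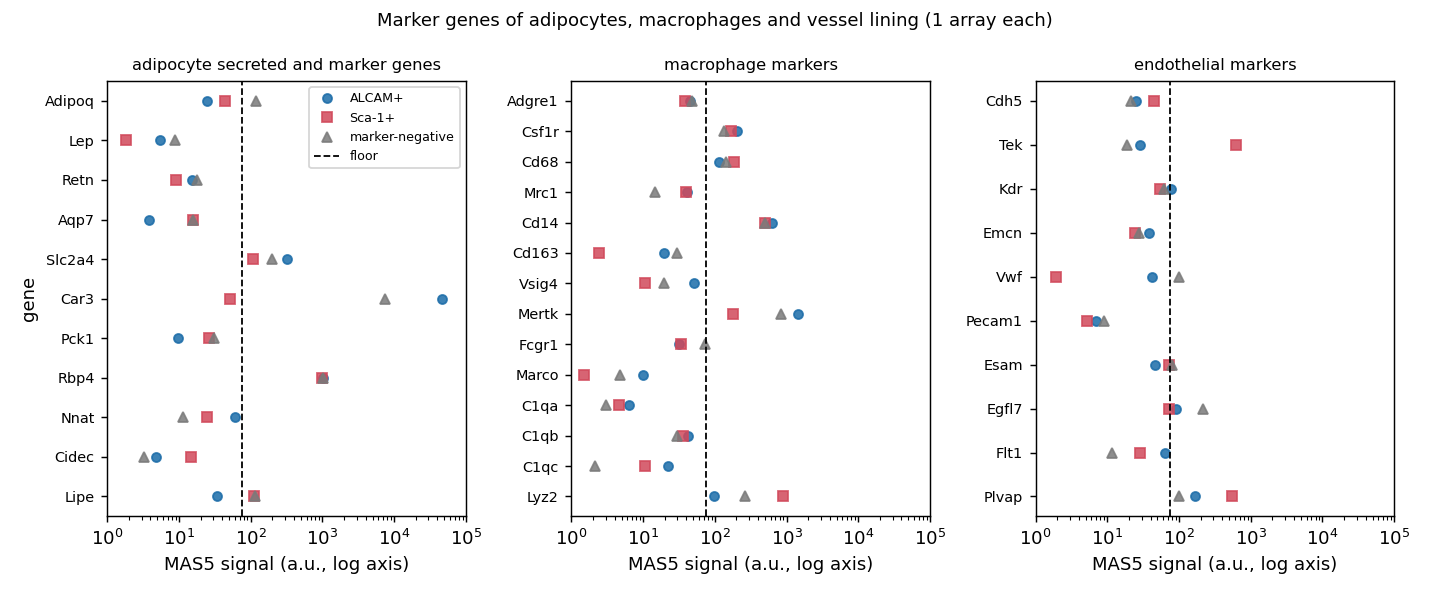
MAS5 signal (log axis) of adipocyte, macrophage and endothelial marker genes in ALCAM+ (circles), Sca-1+ (squares) and marker-negative cells (triangles), 1 array per population; the dashed line is the floor of 75.4. Most adipocyte and macrophage markers lie left of the floor in the 3 populations.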

How the data were processed

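The deposited values are signal intensities of 45101 probe sets on 3 arrays, which the authors computed with MAS5 (named in the submitters' processing notes; version not given in the sources used here) from TRIzol RNA amplified by a 2-cycle biotin labelling, per the labels' protocols. The 2% trimmed mean of each array was 500, so no further scaling was applied; amplification favours the 3' ends of transcripts. Gene names came from the array annotation: 34958 probe sets had 1 symbol, 932 had several and 9147 were unlisted and stay unnamed, and 64 controls were left out. Signals were raised to 75.4, turned to log2, and the brightest probe set by mean signal stood for its gene (Python 3.11.15, pandas 2.3.3). "At least" marks a fold whose dimmer value lay at the floor. With 1 array per group no test was run, and the number of arrays limits the precision. The members, lists and rules were chosen with earlier results of these data known. All members are named; from the lists, named are the members' partners, up to 4 genes past 4-fold, and some genes chosen after their values were seen. The calling steps were run on simulated data, with less noise than probe sets of one gene had here and changes well past 4-fold planted in bright genes. That run checks the code and cannot tell how reliable calls near 4-fold or near the floor are. The alternatives were 3 other scalings, 2 other floors, an offset of 50 with no floor, 2 other ways to represent a gene and a 2-fold rule.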

Additional observations from a re-analysis of the deposited data

How the results depend on the processing

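Lpl and Fabp5 in Sca-1+ over marker-negative cells kept direction and 4-fold size under the 8 alternatives, with log2 differences from 3.25 to 3.85 and from -2.58 to -2.22. In ALCAM+ over marker-negative cells, poly-A spike-in scaling gave 2 members lower and a median of -0.74, hybridization control scaling 1 lower and -0.70, the floor at the 25th percentile 1 lower (Adipoq) and the 2-fold rule 2 lower, in place of 0. In ALCAM+ over Sca-1+ cells, either spike-in scaling gave 0 higher and 2 lower, and the 2-fold rule 3 lower, in place of 1 and 1. In Sca-1+ over marker-negative cells the 2-fold rule gave 3 higher in place of 1. Over all genes, 254 were higher and 338 lower in ALCAM+ than in marker-negative cells, against 162 and 584 with poly-A and 165 and 542 with hybridization scaling, 122 and 86 with the floor at the 75th percentile, 584 lower with the 25th and 168 and 194 with probe sets averaged. For Sca-1+ over marker-negative cells 690 and 595 became 957 and 513 (poly-A), 950 and 513 (hybridization), 345 and 223 (75th), 911 and 880 (25th) and 459 and 406 (averaged). For ALCAM+ over Sca-1+ cells 504 and 741 became 279 and 1514, 296 and 1403, 256 and 356 (75th) and 373 and 519. The cause was not tested. No paired analysis was possible because each population has 1 array. Below the floor, differences are not detectable.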

Other observations

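Markers of reticular stromal cells, the marrow cells that support blood formation and can become adipocytes, were mostly highest in Sca-1+ cells, as Lpl was. Of 9 such genes, 7 exceeded their marker-negative value by 4-fold or more in Sca-1+ cells (3.79% of all genes) and 0 were lower (3.27% of all genes). The median log2 difference was 3.25, against 0 for all genes. The 7 became 3 with probe sets averaged. In Sca-1+ over marker-negative cells, Vcam1 (log2 difference 3.88) and Pdgfrb (2.94) kept their calls in 8 of 8 alternative settings. Cxcl12 (4.69) kept its call in 7 and Lepr (3.25) in 6. Ebf3, a transcription factor gene of these cells, kept its call in 5, at 125.8 in ALCAM+ cells, 1012 in Sca-1+ cells and 215.8 in marker-negative cells. Il7, which encodes a lymphoid growth factor, was not among the 7, with a log2 difference of at least 1.86. It had 17.9 in ALCAM+ cells, 273 in Sca-1+ cells and 47.4 in marker-negative cells. The order of Lpl, with ALCAM+ cells lowest, was not shared by Foxc1, Kitl and Pdgfra. Foxc1 had 6049 in ALCAM+ cells, 3599 in Sca-1+ cells and 6702 in marker-negative cells. Kitl, the stem cell factor gene, had 446.2 in ALCAM+ cells, 1513 in Sca-1+ cells and 71.1 in marker-negative cells, and Pdgfra, a growth factor receptor gene, had 5122 in ALCAM+ cells, 11647 in Sca-1+ cells and 671.5 in marker-negative cells, so 2 of the 9 were over 4-fold higher in ALCAM+ cells than in marker-negative cells. These 2 became 1 with probe sets averaged, and the Kitl call was also lost with the floor at the 75th percentile. Adipoq, which these cells are known to express, was below the floor in Sca-1+ cells, at 43.8.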
